A study of Homo sapiens with 3 samples.

Results

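The genes described here encode enzymes that make, salvage or sanitise the deoxynucleotides used for DNA synthesis, together with a nucleoside transporter. They are the rows of the count table whose gene symbol is RRM1, RRM2, TYMS, DUT, DTYMK, TK1, DCK, SLC29A1 or DCTPP1, 9 of 57736 rows in all. RNA was measured by sequencing total RNA of TOV21G, a human ovarian clear cell carcinoma line in which ARID1A, a subunit gene of the SWI/SNF chromatin remodelling complex, is mutated. All 3 libraries carry that mutation and came from cells grown in the same medium. The WT group is 1 library of cells with unaltered HDAC2, and the HDAC2 knockdown group is 2 libraries, each of cells transduced with a lentivirus for a different short hairpin RNA (shRNA 1 and shRNA 2) against this histone deacetylase. No label mentions a control virus for WT, so the effects of knockdown and of transduction cannot be told apart. Each hairpin is 1 library, and nothing in the labels ties a library to more than 1 culture.

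Deoxynucleotides reach a cell by 2 routes. In the synthesis route, ribonucleotide reductase, built from RRM1 and a small subunit, reduces ribonucleotides, and the thymidylate branch then runs through DUT, TYMS and DTYMK to the thymidine nucleotides. In the salvage route, nucleosides enter through transporters such as SLC29A1 and are phosphorylated by kinases such as TK1 and DCK. Many of these genes are known as targets of the E2F transcription factors and peak as cells enter S phase, which is why they serve as markers of proliferation and as targets of antimetabolite drugs.

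Between 10138479 (WT) and 11398791 (shRNA 1) counts stood behind each library. Of the line's markers, PAX8, a transcription factor of Müllerian epithelium, had 1969 to 2871 counts, whereas NAPSA, a marker of clear cell carcinoma, had 1 to 4. Of the fibroblast markers, COL3A1 and LUM were at 0 in every library. The summed level of that list was a normalised level (CPM, the count scaled to a common library size) of 15.6 in WT, 24.3 with shRNA 1 and 38.6 with shRNA 2, with COL1A2 rising as 1 of 3 tested. Leukocyte markers summed to 0.973 to 3.51 CPM and endothelial markers to 0.201 to 0.872. The part of these low levels in the results below was not tested. The targeted gene HDAC2 stood at 105 CPM in WT, 33.4 with shRNA 1 and 51.6 with shRNA 2, and changed by −1.31 ± 0.20 (SE) on the log2 scale (adjusted p = 4.82e-04, quasi-likelihood test of edgeR, Benjamini-Hochberg over all genes).

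The upstream sequences of the 6 genes that fell in the comparison below are shown first, a choice made by that outcome. Each line gives the 130 bases just before an annotated transcription start, 5′ to 3′ in the direction of the gene, from RefSeq (GRCh38.p14). Capitals mark matches on either strand to the E2F site letters TTTCCCGC, TTTGGCGC, TTTCGCGC or TTTGCCGC, to the CCAAT box, or to TTTGAA or TTCGAA, the letters of the cell cycle homology region.
TK1, chr17:78187053-78187182, minus strand: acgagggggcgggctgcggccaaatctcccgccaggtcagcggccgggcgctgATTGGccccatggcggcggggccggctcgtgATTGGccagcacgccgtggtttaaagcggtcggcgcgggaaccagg
RRM2, chr2:10122609-10122738, plus strand: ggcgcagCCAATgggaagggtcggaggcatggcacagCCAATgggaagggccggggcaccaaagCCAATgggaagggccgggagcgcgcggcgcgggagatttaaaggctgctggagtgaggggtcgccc
RRM1, chr11:4094555-4094684, plus strand: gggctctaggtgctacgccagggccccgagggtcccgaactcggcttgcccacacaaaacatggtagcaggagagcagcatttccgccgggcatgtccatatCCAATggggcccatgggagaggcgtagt
TYMS, chr18:657523-657652, plus strand: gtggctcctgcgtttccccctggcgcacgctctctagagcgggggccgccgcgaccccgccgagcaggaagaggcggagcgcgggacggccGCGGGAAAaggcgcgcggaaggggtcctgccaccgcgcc
DUT, chr15:48332067-48332196, plus strand: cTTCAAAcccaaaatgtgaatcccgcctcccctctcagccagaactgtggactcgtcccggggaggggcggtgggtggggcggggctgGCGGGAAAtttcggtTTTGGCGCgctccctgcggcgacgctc
DTYMK, chr2:241686816-241686945, minus strand: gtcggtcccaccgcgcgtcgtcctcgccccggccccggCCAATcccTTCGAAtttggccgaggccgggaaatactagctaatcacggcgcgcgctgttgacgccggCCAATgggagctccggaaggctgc

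TK1 has 2 annotated starts in this source, RRM2 2 and DUT 4, and the start shown is the one with the most matches in these 130 bases. RRM2 carries 3 CCAAT boxes, TK1 and DTYMK 2 each and RRM1 1, and DTYMK has a TTCGAA beside its distal box. TYMS carries 1 match to the E2F letters and DUT 2, TTTGGCGC and the reverse complement of TTTCCCGC. In the full windows of 250 bases before to 50 bases after each start, 3 of 9 genes held a match to the E2F letters (TYMS, DUT and, after its start, DCK). Over all 27305 genes with such windows the share was 3.99%. A CCAAT box was held by 4 of 9 (39.7% of all genes), and a cell cycle homology match by 4 of 9 (19.5% of all genes), namely RRM1, DUT, DTYMK and SLC29A1. DCTPP1 held none of these letters. Genes differ in their number of windows, so shares by gene are not strictly alike. By window, E2F letters were in 3 of 15 (3.31% of all 35116 windows). CCAAT was in 5 of 15 (34.6%) and the cell cycle homology letters in 4 of 15 (16.4%). A match is a description of the letters only, and E2F sites that vary from these letters were not searched. Any link between these matches and the falls below was not tested.

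The comparison of knockdown with WT asks how the RNA of these genes differs once HDAC2 is depleted in cells with a mutated ARID1A. Of the 9 genes, all of which passed the filter on low counts, 6 fell (TK1, DUT, RRM2, DTYMK, TYMS and RRM1), 0 rose and 3 (DCTPP1, SLC29A1 and DCK) did not pass. Over all 14524 genes tested, 3.76% fell and 3.96% rose at the same threshold, a Benjamini-Hochberg adjusted p below 0.05 in the quasi-likelihood test of edgeR. The same 6 genes fell after removal of a trend in the GC content of transcripts, where 2.99% of all genes fell and 1.72% rose, and in DESeq2's Wald test, where 1.07% fell and 1.04% rose. The median log2 change of the 9 was −0.79, against 0.01 over all genes, and 8 of the 9 were below WT with both hairpins, as were 39.3% of all genes. Summed over the 9 genes the level was 1714 CPM in WT, 933 with shRNA 1 and 1016 with shRNA 2, so 54.4% and 59.3% of WT. In bulk RNA, fewer cells in S phase and less RNA per cell cannot be told apart.

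**Figure D1:**
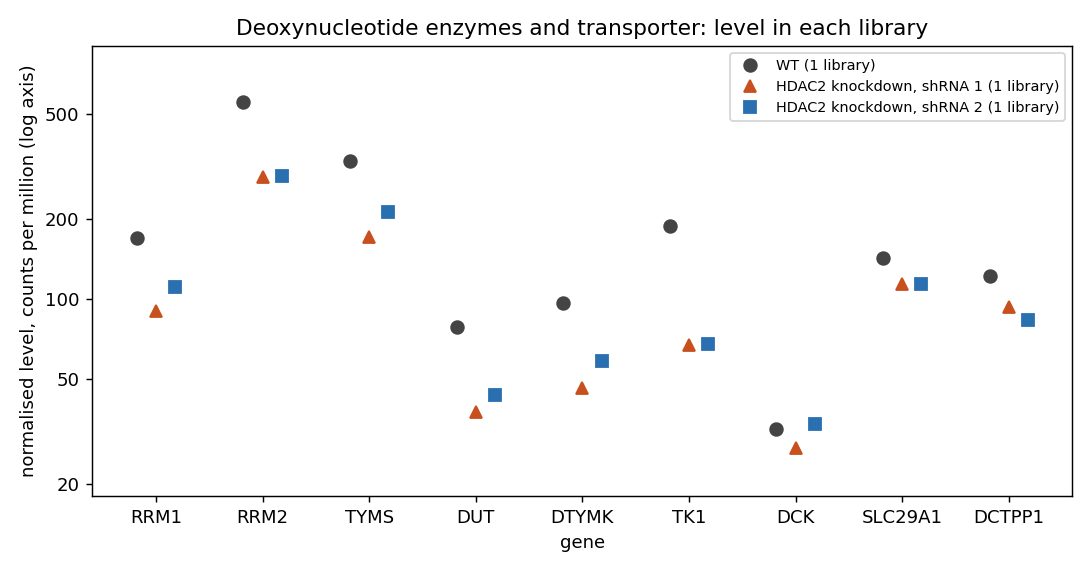
Normalised level of each gene in CPM on a log axis, 1 symbol per library. For RRM1, RRM2, TYMS, DUT, DTYMK and TK1 both knockdown libraries lie well below WT, while the 3 symbols of DCK lie between 27.5 and 33.6 and overlap.

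The enzymes of the reduction step fell together. RRM1, the large catalytic subunit of ribonucleotide reductase, stood at 169 CPM in WT, 90.1 with shRNA 1 and 111 with shRNA 2. Both knockdown libraries were below WT, and the log2 change was −0.76 ± 0.17 (SE; adjusted p = 0.0117, edgeR's quasi-likelihood test). RRM2, the small subunit made in S phase, had the highest CPM of the 9, at 552 in WT, 288 with shRNA 1 and 292 with shRNA 2. These knockdown values nearly coincide, at 52.1% and 52.9% of WT, and RRM2 changed by −0.93 ± 0.16 (SE) on the log2 scale (same test, adjusted p = 0.00122). RRM2 shares 19.0% of its 75-base sequences with other annotated genes, nearly all with AC007240.1. That gene lies on the same strand and has no row in the count table.

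The other small subunit went the opposite way. RRM2B, the damage-inducible small subunit that supplies deoxynucleotides outside S phase and for DNA repair, stood at 31.0 CPM in WT, 63.6 with shRNA 1 and 64.5 with shRNA 2. It rose by 1.05 ± 0.18 (SE) on the log2 scale (adjusted p = 0.00167 by edgeR's quasi-likelihood test). RRM2B was 205% of WT with shRNA 1 (179 to 235%) and 208% with shRNA 2 (182 to 238%), intervals for counting error only. Its log2 change shrank to 0.69 with the GC trend removed, where it still passed (adjusted p = 0.0230 by the same test). Per kilobase of the longest annotated transcript, RRM2 exceeded RRM2B 23.9-fold in WT and 6.08-fold with each hairpin. The difference in response between these genes was not tested as such. In both genes the WT library lay outside the range of the knockdown libraries, highest for RRM2 and lowest for RRM2B.

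**Figure D2:**
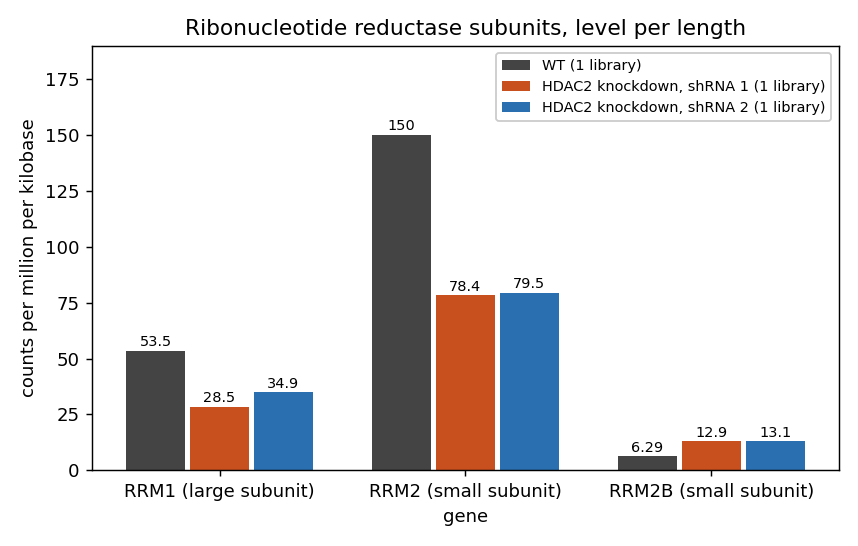
Level of the ribonucleotide reductase subunit genes in CPM per kilobase of the longest annotated transcript, 1 bar per library. RRM1 and RRM2 are lower in both knockdown libraries than in WT, whereas RRM2B moves from 6.29 to 12.9 and 13.1.

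The 3 enzymes of the thymidylate branch also fell. DUT, which hydrolyses dUTP to dUMP and so both keeps uracil out of DNA and feeds TYMS, stood at 78.1 CPM in WT, 37.5 with shRNA 1 and 43.5 with shRNA 2. Its log2 change was −0.95 ± 0.17 (SE; adjusted p = 0.00223, edgeR's quasi-likelihood test), and DUT-AS1, which overlaps it on the opposite strand, had 7 to 13 counts. TYMS, the thymidylate synthase inhibited by fluorouracil metabolites, stood at 333 CPM in WT, 171 with shRNA 1 and 213 with shRNA 2. All knockdown values of both genes were below WT, and TYMS changed by −0.79 ± 0.17 (SE) on the log2 scale (adjusted p = 0.00802 by the same test). DTYMK, which phosphorylates dTMP on the way to dTTP, stood at 96.6 CPM in WT, 46.1 with shRNA 1 and 58.2 with shRNA 2, and changed by −0.89 ± 0.18 (SE) on the log2 scale (same test, adjusted p = 0.00386).

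TYMS lies on chromosome 18 from 657604 to 673578 (GENCODE 29, GRCh38) and overlaps its neighbour ENOSF1 on the opposite strand over 39.1% of its exonic bases. ENOSF1 had 564 counts in WT, 589 with shRNA 1 and 675 with shRNA 2, against 3315, 1959 and 2413 for TYMS. Without a stated strand setting, reads from the overlap cannot be assigned with certainty. With the counts of both genes summed, the log2 change was −0.65 and still passed (adjusted p = 0.0240 by edgeR's quasi-likelihood test).

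TK1 fell most of the 9 genes. This cytosolic thymidine kinase of the salvage route (chromosome 17 from 78174075 to 78187233, GENCODE 29, GRCh38) had 1875 counts in WT, 765 with shRNA 1 and 766 with shRNA 2. In CPM these were 188, 66.7 and 67.7, so the knockdown libraries stood at 35.5% and 36.0% of WT and differed little from each other. The log2 change was −1.48 ± 0.16 (SE; adjusted p = 2.40e-05, edgeR's quasi-likelihood test), rank 10 of 14524 genes by p. It was −1.20 with the GC trend removed, where TK1 still passed (adjusted p = 4.25e-04). TK1 has the highest transcript GC content of the 9, at 62.8%.

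The remaining salvage genes did not pass. DCK, the kinase that phosphorylates deoxycytidine and activates drugs such as cytarabine and gemcitabine (GRCh38 chromosome 4 from 70992538 to 71030914), stood at 32.4 CPM in WT, 27.5 with shRNA 1 and 33.6 with shRNA 2, so WT lay between the hairpins. Its log2 change was −0.09 ± 0.20 (SE; adjusted p = 0.838, edgeR's quasi-likelihood test), or −0.37 with the GC trend removed (adjusted p = 0.286, same test). DCK overlaps MOB1B on the same strand over 6.17% of its exonic bases. MOB1B had 397 counts in WT, 661 with shRNA 1 and 644 with shRNA 2, against 323, 315 and 380 for DCK. The part of this overlap in the DCK values was not tested. SLC29A1, the equilibrative transporter ENT1 (GRCh38 chromosome 6 from 44219505 to 44234151), stood at 142 CPM in WT, 113 with shRNA 1 and 114 with shRNA 2. Both knockdown libraries were near 79.6% of WT, and the difference of −0.33 ± 0.17 (SE) on the log2 scale missed the threshold (same test, adjusted p = 0.246), and was −0.12 with the GC trend removed.

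DCTPP1, a pyrophosphatase that removes dCTP and modified cytidine nucleotides from the pool (GRCh38 chromosome 16 from 30423619 to 30430075), stood at 122 CPM in WT, 92.8 with shRNA 1 and 83.2 with shRNA 2. WT was again the highest library, but the log2 change of −0.47 ± 0.17 (SE) did not pass (adjusted p = 0.0936, unadjusted p = 0.0115, edgeR's quasi-likelihood test), and was −0.29 with the GC trend removed. DCTPP1 overlaps ZNF771 on the opposite strand over 42.1% of its exonic bases, with 78, 64 and 49 counts for ZNF771 against 1217, 1064 and 941. These 3 genes are not shown to be unaffected, since the SE of each change is 0.17 to 0.20.

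**Figure D3:**
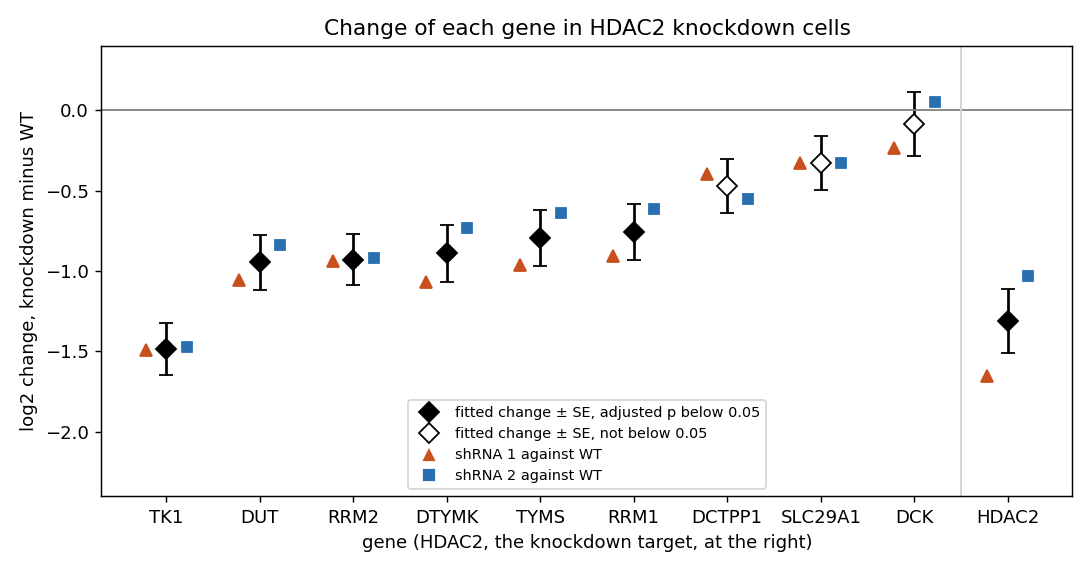
Log2 change of each gene in knockdown against WT. Diamonds are the fitted change with its standard error, filled where the adjusted p is below 0.05, and triangles and squares are the single hairpin libraries against WT, with no test. TK1 lies lowest of the 9 at −1.48, and DCK is the gene whose hairpins lie on opposite sides of 0.

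The hairpins differed in how far some of these genes fell. HDAC2 itself was 31.7% of WT with shRNA 1 and 48.9% with shRNA 2. TYMS was 51.4% and 64.2% of WT, RRM1 53.2% and 65.3%, DTYMK 47.7% and 60.2% and DUT 48.1% and 55.7%, so shRNA 1 was the lower in each. The ratio of shRNA 2 to shRNA 1, with an exact 95% binomial interval that covers counting error only, was 1.25 (1.18 to 1.33) for TYMS and 1.26 (1.12 to 1.42) for DTYMK. Over the 9 genes this interval lay above 1 for 5, namely TYMS, RRM1, DTYMK, DUT and DCK, and below 1 for DCTPP1. It included 1 for TK1 (0.917 to 1.12), RRM2 (0.966 to 1.06) and SLC29A1 (0.927 to 1.08). Over all tested genes with counts in these libraries the interval excluded 1 for 33.6%. Of the 6052 with a mean count at least that of DCK, the lowest of the 9, it excluded 1 for 51.5%. It lay above 1 for 25.4% of those 6052 and below 1 for 26.1%. Nothing is read from the count over the 9. With 1 library per hairpin, a hairpin and its library cannot be told apart, and these ratios have no replicate check.

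The wider pathway moved less. Of 76 tested genes in 8 lists of nucleotide metabolism, 2 fell (2.63%) and 2 rose (2.63%), against 3.76% and 3.96% over all genes, and the median log2 change was −0.16. Both hairpins were below WT for 46 of the 76 (60.5%), against 39.3% of all genes. With the GC trend removed 5 of the 76 fell (6.58%) and 1 rose (1.32%), against 2.99% and 1.72% of all genes. These lists were chosen with earlier results known and are described by their counts alone.

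Those that fell were a gene of the folate cycle and a transporter. SHMT1, which loads serine carbon onto the folate that TYMS uses, stood at 73.6 CPM in WT, 41.4 with shRNA 1 and 36.7 with shRNA 2 (log2 −0.91 ± 0.17, SE; adjusted p = 0.00282, edgeR's quasi-likelihood test). It was 1 of 10 genes of the thymidylate and folate cycle described here, whose median was −0.33. Its most abundant members that did not pass were MTHFD1, a folate interconverting enzyme, at −0.38 ± 0.17 (SE), and DCTD, which deaminates dCMP to dUMP, at 0.29 ± 0.17 (SE). SHMT1 also passed by DESeq2's Wald test.

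SLC29A2, the transporter ENT2, fell by 0.88 on the log2 scale, from 25.4 CPM in WT to 11.8 and 15.7. It was 1 of 3 tested transporters beside SLC29A1, and it no longer passed without the GC trend (log2 −0.61, adjusted p = 0.135, edgeR's quasi-likelihood test). SLC29A2 did not pass by DESeq2's Wald test either. SLC29A4 and SLC29A3 did not pass, at −0.14 and 0.23. The concentrative transporters SLC28A1, SLC28A2 and SLC28A3 had 0 to 4 counts in each library and were not tested.

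Besides RRM2B, the gene that rose was AK3, a mitochondrial adenylate kinase family member that uses GTP, at 41.0 CPM in WT, 67.8 with shRNA 1 and 83.2 with shRNA 2. Its log2 change was 0.88 ± 0.19 (SE; adjusted p = 0.00654, edgeR's quasi-likelihood test), which no longer passed without the GC trend (log2 0.59, adjusted p = 0.0517 by the same test). The other 12 tested nucleotide kinases did not pass, with NME2, which shares 22.5% of its 75-base sequences, at −0.18 and AK4 at −0.11. RRM2B was the 1 gene of 6 reductase partners to pass. Thioredoxin (TXN), an electron donor of the reductase, was at 0.44 ± 0.16 (SE; adjusted p = 0.107) and its reductase TXNRD1 at −0.20 ± 0.17 (SE).

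No gene of 4 further lists passed by edgeR's quasi-likelihood test or by DESeq2, with 12 of their 44 tested genes (27.3%) at an unadjusted edgeR p below 0.05, against 23.5% of all genes. These were 8 other salvage genes (median −0.24), 18 genes of nucleotide breakdown and pool cleaning (median −0.15), 5 of pyrimidine synthesis (median −0.18) and 13 of purine synthesis (median −0.34). Among the most abundant, the uridine kinase UCK2 was at −0.50 ± 0.17 (SE), the mitochondrial deoxyguanosine kinase DGUOK at −0.20 ± 0.17 (SE), the CTP synthases CTPS1 and CTPS2 at −0.10 and −0.18, the purine enzymes PAICS and IMPDH2 at −0.41 and −0.16, and NUDT5 and NT5C2, hydrolases of nucleotides, at −0.39 and 0.21. SAMHD1, which degrades dNTPs and was picked for mention with its values known, had 257 counts in WT, 263 with shRNA 1 and 266 with shRNA 2 (log2 −0.15 ± 0.20, SE). With the GC trend removed 3 of the 13 purine genes (PRPS2, PAICS and GMPS) fell. So did 1 of the 18 breakdown genes (NUDT5), against 2.99% of all genes in that alternative.

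**Figure D4:**
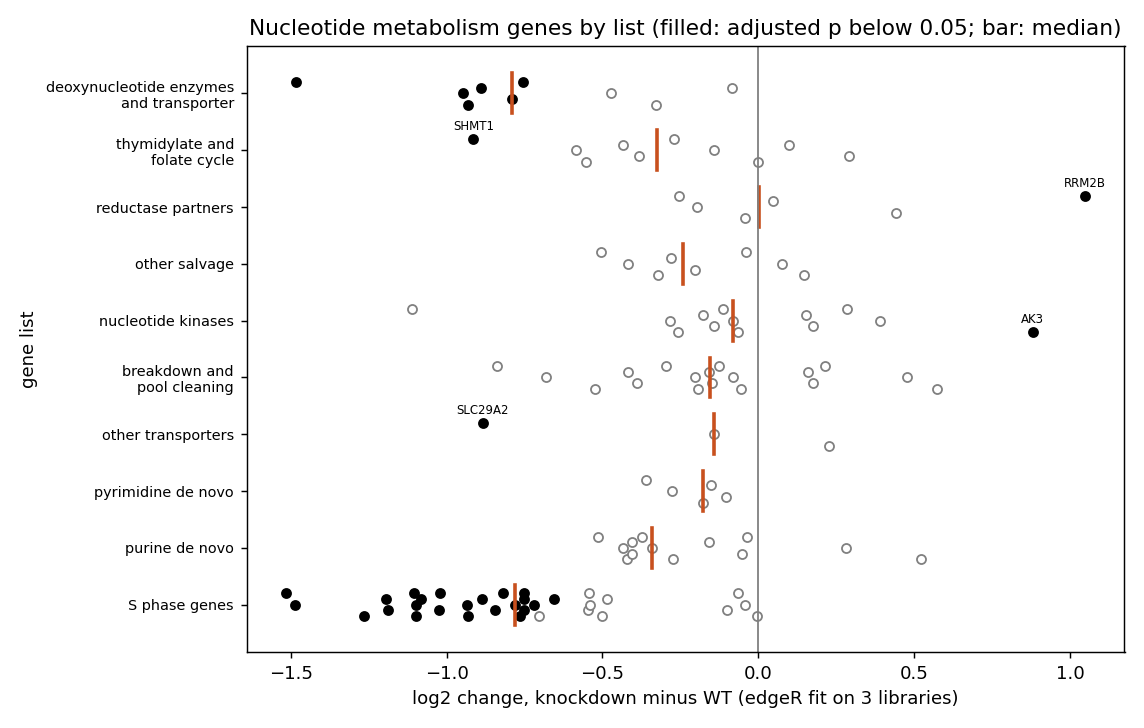
Log2 change of each tested gene, knockdown minus WT, by list. Filled points passed the test at an adjusted p below 0.05, bars are list medians, and names are given for genes that passed outside the top and bottom lists. The top list has its median at −0.79 and the S phase genes theirs at −0.78, while the medians of purine and pyrimidine synthesis are −0.34 and −0.18.

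Other S phase genes fell beside them. Of 33 tested genes of replication licensing, the fork and the E2F family, 23 fell and 0 rose, against 3.76% and 3.96% of all genes, with a median log2 change of −0.78. DESeq2's Wald test called 13 of these 23 (1.07% of all genes fell there), missed 9 and gave no adjusted p for CDC45. With the GC trend removed 22 of the 23 fell, all but LIG1. In that alternative 26 of the 33 fell and 0 rose, against 2.99% and 1.72% of all genes. The summed level of the 33 genes was 2705 CPM in WT, 1502 with shRNA 1 and 1749 with shRNA 2. CDT1, a licensing factor, changed by −1.49 ± 0.21 (SE), MCM5, a helicase subunit, by −1.27 ± 0.17 (SE), and the transcription factors E2F1 and E2F2 by −1.08 ± 0.21 (SE) and −1.51 ± 0.20 (SE). MCM2, MCM3, MCM4, MCM6, MCM7, CDC6, CDC45, GINS2, GINS3, GINS4, POLA2, POLD1, POLE, RFC2, RFC5, FEN1, LIG1, E2F7 and E2F8 also fell in edgeR's test. The 9 that DESeq2 missed were MCM6, GINS3, GINS4, RFC2, RFC5, FEN1, LIG1, E2F1 and E2F7, and POLA2 shares 33.6% of its 75-base sequences with other genes and is uncertain. PCNA, the sliding clamp, was at −0.50 ± 0.17 (SE; adjusted p = 0.0754, edgeR's quasi-likelihood test) and RFC3 at −0.48 ± 0.19 (SE), and both passed with the GC trend removed. The part of the cells' S phase share in the fall of the deoxynucleotide genes was not tested.

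These p-values rest on 1 residual and 18.9 prior degrees of freedom, so mostly on a spread shared across genes. That spread comes from the hairpin libraries alone, which differ in hairpin and in HDAC2 level. Its technical part cannot be told apart from these differences. WT, a single library, is taken to vary like the hairpin libraries. Without the filter on low counts, 0 genes passed by edgeR's quasi-likelihood test (2486 at an unadjusted p below 0.05), as adjusted p was 0.468 for each of the 6 genes that fell, at the same log2 changes and unadjusted p of 8.71e-04 (TK1) to 0.0259 (RRM1 and TYMS).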

How the data were processed

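The values are estimated counts, deposited by the authors as whole numbers in a table of 57736 Ensembl genes and 3 library columns. RSEM 1.2.3, edgeR and hg19 are named, with no role given, per the submitters' processing notes. Reads were 75 bases from total RNA (ScriptSeq kit, NextSeq), per the labels' protocols. For the strand setting, the sources used here give nothing. RSEM divides reads that fit several genes by a model.

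Genes were tested with edgeR 4.0.16 (R 4.3.3), quasi-likelihood test, TMM scaling, filterByExpr defaults and Benjamini-Hochberg adjustment over 14524 genes, with a threshold of 0.05. The fit had 1 residual and 18.9 prior degrees of freedom. SEs came from the estimate and its F statistic. CPM are TMM-scaled, and changes of single hairpins used a prior count of 2. A difference between shRNA libraries exceeded counting noise over all genes (chi-square 9.45 per gene). The test was also run on simulated counts with known changes, drawn independently for each gene and library at the fitted spread. The outcome of that run is not reported here. Length, GC content and shared 75-base sequences came from GENCODE 29 (GRCh38), and promoters from RefSeq (GRCh38.p14), where all 9 genes matched by symbol. The hg19 annotation was not used here.

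The 9 genes and all lists were chosen with earlier results of these data known. Named from the lists were the genes that passed and up to 2 more per list with the highest mean level. TK2, SAMHD1, the SLC28A genes and some of those that passed in an alternative alone were added with their values known. Some genes of the lists are not reported here and are left out of their counts. Alternatives were DESeq2 1.42.0 (size factors or Wald test), library size alone, upper quartile scaling, no filter, a mean count of at least 50, edgeR's likelihood ratio test, a GC trend removed by offsets, sums of genes that share at least 20% of these sequences, and each hairpin left out.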

Additional observations from a re-analysis of the deposited data

Results flagged for a closer look

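DCK was the gene among the 9 for which the hairpins lay on opposite sides of WT, at a log2 difference of −0.24 with shRNA 1 and 0.05 with shRNA 2. This difference was not tested, since each hairpin is 1 library. The ratio of shRNA 2 to shRNA 1 was 1.22, with a counting interval of 1.05 to 1.42.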

How the results depend on the processing

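All 6 falls passed again under 8 of 9 alternatives with a test, and DCTPP1, SLC29A1 and DCK passed under none. Across those 9, the log2 change ranged from −1.50 to −1.20 for TK1, −1.06 to −0.91 for DUT, −0.99 to −0.90 for RRM2, −0.91 to −0.64 for DTYMK, −0.81 to −0.65 for TYMS and −0.89 to −0.72 for RRM1. It ranged from −0.49 to −0.29 for DCTPP1, −0.37 to −0.05 for DCK and −0.34 to −0.12 for SLC29A1, and removal of the GC trend gave −0.29, −0.37 and −0.12. The 6 falls did not pass with no filter on low counts, where 0 of 23698 genes passed edgeR's quasi-likelihood test (2486 at an unadjusted p below 0.05). There 0 of the 9 genes and 0 of the other nucleotide genes passed, and HDAC2 changed by −1.31 (adjusted p = 0.468). DESeq2's Wald test called 306 genes in all, against 1121, and 3 of the other nucleotide genes against 4, namely RRM2B, AK3 and SHMT1, and 6 passed with the GC trend removed. With the GC trend removed, 684 genes passed, 250 upwards and 434 downwards, against 575 and 546, and DTYMK passed narrowly (adjusted p = 0.0453, edgeR's quasi-likelihood test). The cause of these differences was not tested. With each hairpin left out, which leaves values with no test, HDAC2 ranged from −1.66 to −1.03. No paired analysis was possible, since WT is 1 library and no label pairs it with a hairpin library.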

Other observations

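The order of levels changed within the 9 genes. Per kilobase of the longest annotated transcript, TYMS and RRM2 ranked highest in all 3 libraries, at 200.1 and 150.3 CPM per kilobase in WT. TK1 followed in WT at 112, above DCTPP1 at 99.9 and SLC29A1 at 61.2. With shRNA 1 TK1 stood at 39.7, below DCTPP1 at 76.0 and SLC29A1 at 48.7, and with shRNA 2 at 40.3, below DCTPP1 at 68.1, SLC29A1 at 48.8 and DTYMK at 47.2. The thymidine kinases of cytosol and mitochondria moved apart, as TK2 stood at 37.5, 38.6 and 34.3 CPM in WT, shRNA 1 and shRNA 2. This difference in response was not tested. TK2 shares 18.6% of its 75-base sequences with other genes, and its symbol has 2 rows, which were not summed. Per kilobase, TK1 exceeded TK2 15.3-fold in WT, 5.25-fold with shRNA 1 and 6.01-fold with shRNA 2.

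Of 11206 genes whose mean count was at least 50, those with a pair of hairpin changes nearest to that of TK1 (log2 −1.49 and −1.47) were AC012379.1 (ENSG00000235883), ESPL1, the gene of separase, and TONSL, a replication fork repair factor. Their distances were 0.10, 0.12 and 0.12 on the log2 scale, over 3 libraries, which is a description with no test. ESPL1 had 599 counts in WT, 225 with shRNA 1 and 250 with shRNA 2, and TONSL 195, 76 and 85. By the same measure RRM2B lay 0.77 from CDKN1A. This is a single chosen pair and is not comparable with the distances to TK1, which are the smallest found. How many genes lie closer to CDKN1A was not counted, and no link is read from this distance.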
